A study of Mus musculus with 6 samples.

Results

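The enzymes of the citric acid (TCA) cycle, the pyruvate dehydrogenase complex (PDH) with its kinases and phosphatases, and succinate dehydrogenase (respiratory complex II) were examined as a group of 33 genes in kidneys of iron-deficient and control mouse pups. The genes were chosen by symbol from a list of the pathway's members, with mitochondrial malic enzymes and the cytosolic relatives Idh1 and Mdh1 included; the rule uses symbols alone, but the group was chosen with earlier results of these data known. All 33 were among the 24422 symbols of the count tables, and all 33 were among the 15145 genes that passed the filter on low counts. RNA-seq was carried out on whole kidneys of 6 wild type C57BL/6 pups labelled as postnatal day 15. The 3 pups of the nutritional iron deficiency group (FeD) were born to and nursed by dams on a synthetic diet of 2 to 6 ppm iron, and the 3 control pups to dams on a diet of 220 ppm iron, each diet given, per the labels, for a month before mating and until day 15; the methods of the study give a shorter time before mating. The number of litters was not given, so litter and diet cannot be told apart. P values of edgeR set the difference between the groups against the spread of these 6 kidneys within their groups, not against a spread between litters.

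PDH carries pyruvate from glycolysis into the mitochondrial cycle as acetyl-CoA. Its E1 subunit is switched off when PDH kinases phosphorylate it and switched on again by PDH phosphatases. The cycle then oxidizes acetyl-CoA and passes electrons on as NADH, or through complex II, whose Sdhb subunit holds iron-sulfur clusters and whose membrane anchor holds a heme. Kidney tubules, above all the proximal tubule, are rich in mitochondria and depend on this route for the energy of transport.

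Reads on genes totalled 13732173 to 20853293 per kidney. In whole kidneys, fewer cells of a type and less RNA per cell cannot be told apart, and many cell type markers differed between the groups. By the rule used for the markers, 23.3% of all tested genes were lower in FeD kidneys and 22.4% higher. Of 12 proximal tubule markers 10 were lower in FeD kidneys and 0 higher (adjusted P under 0.05, edgeR), and their summed counts were 9880 to 10400 CPM in control kidneys and 4340 to 4880 CPM in FeD kidneys. The falls were unequal: Slc5a2 changed by -4.89 and Lrp2 by -0.48 on the log2 scale, and Hnf4a (-0.24) and Slc5a12 (0.18) did not pass. Slc34a1, the most counted of them, went from a mean of 71858 to 15391 normalized counts and weighs heavily on the sum. Of 6 adipose markers, which include the brown fat genes Ucp1 and Cidea, 5 were lower, with sums of 214 to 218 CPM in control kidneys and 47.4 to 56.6 CPM in FeD kidneys. Brown fat is itself rich in mitochondria. Adrenal markers stood apart in FeD kidney 2, at 586 CPM against 7.51 to 75.6 CPM in control kidneys and at most 12.2 CPM in the other FeD kidneys; 1 of the 2 adrenal markers tested, of 6, was higher. Of 4 liver markers 3 were higher (sums of 89.9 to 95.4 CPM in control kidneys and 283 to 316 CPM in FeD kidneys). Albumin was the exception, at a mean of 15.1 normalized counts in control and 14.7 in FeD kidneys (log2 fold change -0.16, adjusted P = 0.88, edgeR). The share of these tissues in the changes below was not tested. Markers of the distal convoluted tubule were lower in 3 of 5, of the thick ascending limb in 2 of 6 and of endothelium in 4 of 6, with 0 higher in each list. Collecting duct principal cell markers were higher in 4 of 7 and lower in 2, those of intercalated cells and of interstitium higher in 2 of 5 and lower in 2, those of macrophages higher in 2 of 6 and lower in 1, and those of podocytes higher in 1 of 5. Of 7 blood markers, the 4 globin genes were listed at 0 in every kidney and the 2 tested did not pass, nor did the 2 tested of 5 skeletal muscle markers. No marker of the kidney lists was at 0 in every kidney. In lists this short, 1 or 2 called genes are not read as a change of a cell type.

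Transcripts of the pathway were lower in FeD kidneys across nearly every enzyme. In edgeR's quasi-likelihood test, with P adjusted by Benjamini-Hochberg over every tested gene, 26 of the 33 genes fell (adjusted P under 0.05), where 23.3% of all tested genes fell, and 2 rose, Pdk1 and Pdp1, where 22.4% of all tested genes rose. The remaining 5, Pdha1, Pdk2, Pdpr, Idh2 and Sdhaf1, did not pass. The median log2 fold change of the 33 genes was -0.54, and that of all tested genes was -0.0018. Changes of at least 2-fold were few: Mdh1 fell and Pdp1 rose by that much, 1 gene each, against 5.69% of all tested genes lower and 4.34% higher by this rule. Every FeD kidney lay below every control kidney for 27 of the 33 genes, the 26 that fell and Idh2, as it did for 29.7% of all tested genes, and above for 2, as it did for 28.4%. With FeD kidney 2 left out, 23 genes fell and 2 rose. Added together, the 33 genes took 1.03% to 1.08% of the counts of each control kidney and 0.685% to 0.714% of each FeD kidney. The means were 1.05% ± 0.0243 and 0.703% ± 0.0160 (SD, n = 3); an exact two-sided permutation test gave P = 0.10, the smallest that 3 against 3 kidneys allow.

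**Figure D1:**
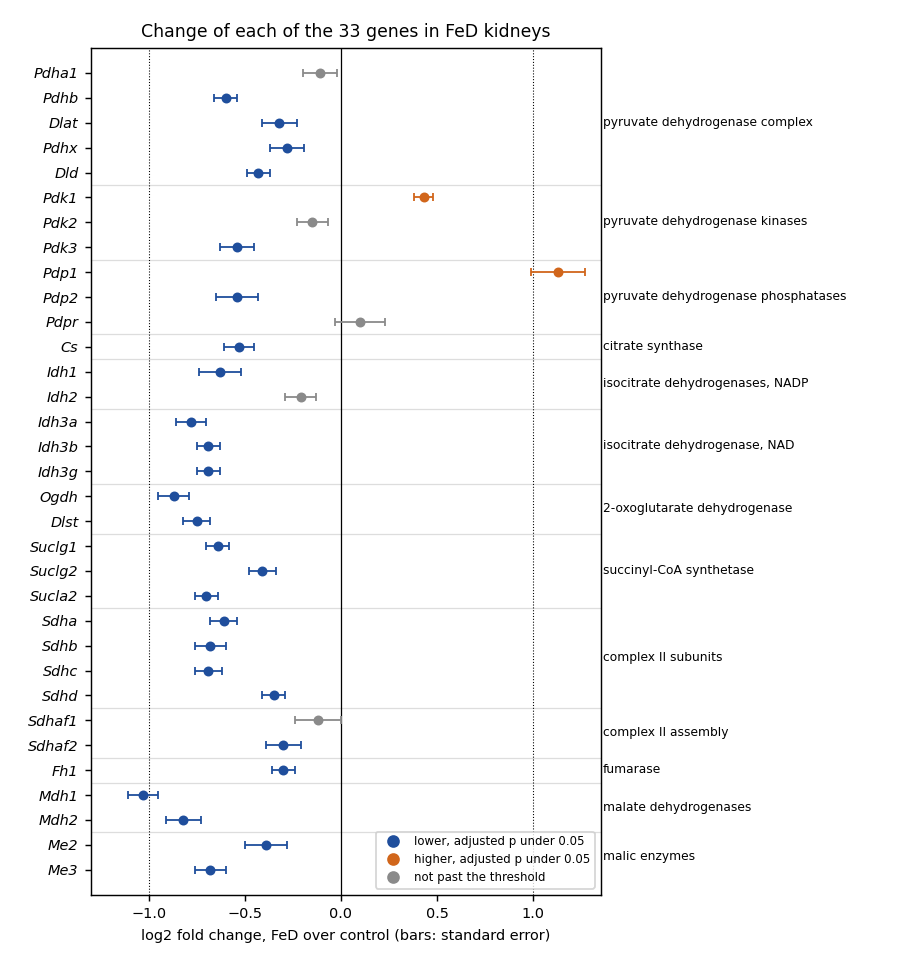
Log2 fold change of each of the 33 genes in FeD over control kidneys (horizontal axis; points are edgeR estimates, bars standard errors, 3 kidneys per group), grouped by enzyme. Blue points fell and orange points rose at an adjusted P under 0.05, grey points did not pass, dotted lines mark a 2-fold change; values run from -1.03 for Mdh1 to 1.13 for Pdp1.

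Of the 5 subunits of PDH, 4 fell, by unequal amounts. Pdhb, the beta subunit of E1, had 4119, 4204 and 4557 normalized counts in the control kidneys and 2863, 2819 and 2841 in the FeD kidneys (log2 fold change -0.60, standard error 0.06, adjusted P = 0.00023, edgeR). The groups did not overlap, and the FeD kidneys were almost equal. Dld, the lipoamide dehydrogenase (E3) that PDH shares with 2-oxoglutarate dehydrogenase, had 5599 to 5715 normalized counts in control kidneys and 4014 to 4348 in FeD kidneys (log2 fold change -0.43, standard error 0.06, adjusted P = 0.0011, edgeR). The acetyltransferase core gene Dlat (E2) had 3027 to 3393 normalized counts in control kidneys and 2321 to 2822 in FeD kidneys, with FeD kidney 3 the highest of its group (log2 fold change -0.32, standard error 0.09, adjusted P = 0.018, edgeR). Pdhx, which binds E3 to the core, had 895 to 1044 normalized counts in control kidneys and 761 to 849.6 in FeD kidneys (log2 fold change -0.28, standard error 0.09, adjusted P = 0.027, edgeR). The calls for Dlat and Pdhx were the weaker ones of the complex. Dlat did not pass without control kidney 3 (adjusted P = 0.077, edgeR), FeD kidney 1 (0.072) or FeD kidney 2 (0.065), and Pdhx did not pass without control kidney 1 (0.075), control kidney 3 (0.12) or FeD kidney 1 (0.086). Pdha1, the E1 alpha subunit that the kinases phosphorylate, did not pass, with 5482, 5345 and 5551 normalized counts in the control kidneys and 4697, 4689.6 and 5777 in the FeD kidneys (log2 fold change -0.11, standard error 0.09, adjusted P = 0.35, edgeR). FeD kidney 3 lay above all control kidneys and the other FeD kidneys below them; without FeD kidney 3, Pdha1 passed, at -0.21 on the log2 scale (adjusted P = 0.012, edgeR). Exons of another gene, Map3k15, overlap 16.0% of the Pdha1 exon sequence. For Pdhb, 9.35% of windows of 100 bases recur elsewhere in the genome, so reads there can have been dropped as not unique.

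The PDH kinases moved in different directions. Pdk1 (mm9 chromosome 2, 71711281 to 71741915), a known target of hypoxia-inducible factor (HIF), had 2124 to 2248 normalized counts in control kidneys and 2881 to 2944 in FeD kidneys (log2 fold change 0.43, standard error 0.05, adjusted P = 0.00050, edgeR). Its groups did not overlap and its kidneys varied little, with a rise from 2169 ± 68.8 to 2915 ± 31.9 normalized counts (SD, n = 3). Pdk3, another kinase isoform, had 596, 622 and 619.5 normalized counts in the control kidneys and 400.1, 392 and 466 in the FeD kidneys, so all FeD kidneys were lower (log2 fold change -0.54, standard error 0.09, adjusted P = 0.0019, edgeR). Pdk2, by level per length the most abundant kinase of the group, had 4380.2 to 4892 normalized counts in control kidneys and 3884 to 4518 in FeD kidneys and did not pass (log2 fold change -0.15, standard error 0.08, adjusted P = 0.15, edgeR). Within each kidney the raw count of Pdk1 was 0.485, 0.46 and 0.453 times that of Pdk2 in control kidneys and 0.638, 0.695 and 0.758 times in FeD kidneys. The log2 ratio was 0.58 higher in FeD kidneys with no overlap (exact two-sided permutation test, P = 0.10, the smallest possible here; 0.13 after Benjamini-Hochberg adjustment over 4 ratios). Summed over these 3 kinases, counts were 404 to 433 CPM in control kidneys and 405 to 437 CPM in FeD kidneys, and these ranges overlapped. The sum leaves out Pdk4, a further PDH kinase, which is reported below with the companion genes and rose. Pdk4 had 1004 to 1084 normalized counts in control kidneys and 2225 to 4539.5 in FeD kidneys (log2 fold change 1.85, adjusted P = 0.00063, edgeR). The overlap thus does not describe the total of PDH kinase transcripts, which was not tested.

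The phosphatases, which reactivate PDH, diverged further. Pdp1 (mm9 chromosome 4, 11885331 to 11893599), the calcium-stimulated catalytic subunit, had 477, 425 and 417 normalized counts in the control kidneys and 792, 957 and 1141 in the FeD kidneys. Every FeD kidney was above every control kidney, and the FeD kidneys spread from 792 to 1141. This was the largest rise among the 33 genes (log2 fold change 1.13, standard error 0.14, adjusted P = 0.00043, edgeR). Pdp2, the other catalytic subunit, went the opposite way, with 409, 428 and 485 normalized counts in the control kidneys and 293, 334 and 282 in the FeD kidneys (log2 fold change -0.54, standard error 0.11, adjusted P = 0.0039, edgeR). All FeD kidneys of Pdp2 were below the controls. Pdpr, the regulatory subunit, had 401, 421 and 393 normalized counts in the control kidneys and 362, 426 and 511 in the FeD kidneys, which overlapped (log2 fold change 0.10, standard error 0.13, adjusted P = 0.54, edgeR), and its sign turned to -0.03 without FeD kidney 3.

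Promoter sequence is shown for Pdk1, which rose, and for Mdh1 and Ogdh, which fell most, as the 250 bases before the transcription start in RefSeq (GRCm38.p6, 5′ to 3′ on the gene's strand). Capitals mark ACGTG or GCGTG, the letters at the core of the hypoxia response element, on either strand; no AAGGTCA, letters recognised by estrogen-related receptors, occurs in these windows. The windows are chr2:71872974-71873223 (plus strand) for Pdk1, the first of 2 listed, chr11:21571935-21572184 (minus strand) for Mdh1, and chr11:6291347-6291596 (plus strand) for Ogdh, the first of 6 listed.
Pdk1: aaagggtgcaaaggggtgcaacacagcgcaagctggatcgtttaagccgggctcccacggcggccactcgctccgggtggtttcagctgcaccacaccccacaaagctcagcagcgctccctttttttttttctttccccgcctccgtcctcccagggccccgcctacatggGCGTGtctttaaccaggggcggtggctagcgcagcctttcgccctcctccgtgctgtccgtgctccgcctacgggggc
Mdh1: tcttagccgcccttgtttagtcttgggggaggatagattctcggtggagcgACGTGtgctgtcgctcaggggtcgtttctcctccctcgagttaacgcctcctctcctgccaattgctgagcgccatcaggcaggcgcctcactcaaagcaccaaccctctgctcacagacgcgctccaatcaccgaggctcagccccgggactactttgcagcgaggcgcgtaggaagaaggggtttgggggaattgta
Ogdh: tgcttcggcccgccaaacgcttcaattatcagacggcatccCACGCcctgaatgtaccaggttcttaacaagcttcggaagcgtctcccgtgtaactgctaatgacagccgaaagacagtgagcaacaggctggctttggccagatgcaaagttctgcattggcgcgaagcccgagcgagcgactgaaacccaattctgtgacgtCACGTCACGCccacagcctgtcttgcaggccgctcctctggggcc
The Pdk1 window holds 1 core, starting 78 bases before the start, the Mdh1 window holds 1 and the Ogdh window 3. The second Pdk1 window, not shown, holds 0. Whether these letters bear on the direction of change was not tested. RefSeq windows were matched for 29 of the 33 genes; Pdp1, Idh3a, Sdhc and Me2 had no entry. ACGTG or GCGTG occurred in 21 of the 29 genes (72.4%) and in 41.5% of all 27025 genes with a window, where genes with several windows count as holding the motif if any window does. Of the 23 genes that fell and had a window, 15 held it. The 27025 genes were not limited to those tested here and base composition was not matched, so the shares test no enrichment. AAGGTCA occurred in 0 of the 29 genes and in 4.70% of all genes. At so low a share, 29 genes are too few to show a lack of these letters. A match of letters is a description and marks no bound site.

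Citrate synthase, which opens the cycle by joining acetyl-CoA to oxaloacetate, had 7699.6, 7859.6 and 8843 normalized counts in the control kidneys and 5555, 5316 and 5989 in the FeD kidneys (log2 fold change -0.53, standard error 0.08, adjusted P = 0.0014, edgeR). All FeD kidneys were lower, and FeD kidney 3 was the nearest to the controls. The mitochondrial NAD-dependent isocitrate dehydrogenase fell in all 3 subunits by nearly the same amount. Its catalytic subunit Idh3a had 4501, 4654 and 5179 normalized counts in the control kidneys and 2955, 2714 and 2676 in the FeD kidneys (log2 fold change -0.78, standard error 0.08, adjusted P = 0.00017, edgeR). The beta subunit Idh3b had 6174, 6289 and 6384 normalized counts in the control kidneys and 4019, 3795 and 3833 in the FeD kidneys (log2 fold change -0.69, standard error 0.06, adjusted P = 0.00012, edgeR). The gamma subunit Idh3g had 4608, 4832 and 4991 normalized counts in the control kidneys and 3125, 2963 and 2886 in the FeD kidneys (log2 fold change -0.69, standard error 0.06, adjusted P = 0.00015, edgeR). For each subunit every FeD kidney was below every control kidney.

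The NADP-dependent isocitrate dehydrogenases behaved less alike. Idh1, the enzyme of cytosol and peroxisomes, had 6217, 6975 and 6210.5 normalized counts in the control kidneys and 3793, 3835 and 4944 in the FeD kidneys. All FeD kidneys were lower, FeD kidney 3 the least so (log2 fold change -0.63, standard error 0.11, adjusted P = 0.0028, edgeR). Idh2, its mitochondrial counterpart, had 12279, 12479.5 and 13416 normalized counts in the control kidneys and 11736, 10140.5 and 11106 in the FeD kidneys. The groups did not overlap, but the difference did not pass the threshold (log2 fold change -0.21, standard error 0.08, adjusted P = 0.066, edgeR); it passed with DESeq2 (adjusted P = 0.033) and with upper-quartile scaling in edgeR (adjusted P = 0.035). The ratio of Idh1 to Idh2 was 0.506, 0.559 and 0.463 in control kidneys and 0.323, 0.378 and 0.445 in FeD kidneys. All FeD ratios were lower, and the closest pair of opposite groups, control kidney 3 and FeD kidney 3, differed little. The log2 ratio differed by -0.42 (exact two-sided permutation test, P = 0.10; 0.13 adjusted over 4 ratios).

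The next steps of the cycle held some of the largest falls. Ogdh (mm9 chromosome 11, 6191636 to 6256645), the E1 subunit of 2-oxoglutarate dehydrogenase, had 13365, 14107 and 15240.0 normalized counts in the control kidneys and 8155, 7490.4 and 7721 in the FeD kidneys (log2 fold change -0.87, standard error 0.08, adjusted P = 0.00013, edgeR). Every FeD kidney was far below the lowest control kidney. Dlst, the succinyltransferase core of the same complex, had 8218, 8389 and 9054 normalized counts in the control kidneys and 5071, 5149 and 4988 in the FeD kidneys (log2 fold change -0.75, standard error 0.07, adjusted P = 0.00013, edgeR). Succinyl-CoA synthetase, which makes ATP or GTP directly, has a shared alpha subunit and alternative beta subunits. The alpha subunit Suclg1 had 6039, 6314 and 6068 normalized counts in the control kidneys and 4009, 4044 and 3787 in the FeD kidneys (log2 fold change -0.64, standard error 0.06, adjusted P = 0.00018, edgeR). Sucla2, the ATP-forming beta subunit, had 4051, 4084 and 4282 normalized counts in the control kidneys and 2419.8, 2532 and 2674 in the FeD kidneys (log2 fold change -0.70, standard error 0.06, adjusted P = 0.00012, edgeR). Both fell with no overlap. Suclg2, the GTP-forming beta subunit, fell less, with 6429 to 6810.3 normalized counts in control kidneys and 4757 to 5345 in FeD kidneys (log2 fold change -0.41, standard error 0.07, adjusted P = 0.0023, edgeR). The ratio of Sucla2 to Suclg2 was 0.63, 0.6 and 0.647 in control and 0.509, 0.527 and 0.5 in FeD kidneys. The log2 ratio was lower in all FeD kidneys, a difference of -0.29 (exact two-sided permutation test, P = 0.10; 0.13 adjusted over 4 ratios). Of the windows of 100 bases in Suclg2 transcripts, 19.1% recur elsewhere in the genome, the highest share of the 33 genes, so its level is uncertain.

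All 4 subunits of complex II fell. Sdha, the flavoprotein that oxidizes succinate, had 15362, 16032 and 16496 normalized counts in the control kidneys and 10396, 10443 and 10476 in the FeD kidneys (log2 fold change -0.61, standard error 0.07, adjusted P = 0.00032, edgeR). The FeD kidneys of Sdha were almost equal, with an SD of 40.4 counts. Sdhb (mm9 chromosome 4, 140517118 to 140535108), the iron-sulfur subunit, had 6883, 7269 and 7653 normalized counts in the control kidneys and 4834, 4265 and 4469 in the FeD kidneys (log2 fold change -0.68, standard error 0.08, adjusted P = 0.00031, edgeR). The anchor gene Sdhc had 5300.0, 5277 and 5823 normalized counts in the control kidneys and 3446, 3276 and 3464 in the FeD kidneys (log2 fold change -0.69, standard error 0.07, adjusted P = 0.00018, edgeR). Sdhb and Sdhc thus lay below every control kidney in each FeD kidney. The other anchor gene, Sdhd, fell less, with 6289 to 6796 normalized counts in control kidneys and 5023 to 5156 in FeD kidneys (log2 fold change -0.35, standard error 0.06, adjusted P = 0.0030, edgeR). A difference between the falls of Sdhb and Sdha was not detectable, as their ratio was 0.448, 0.453 and 0.464 in control and 0.465, 0.408 and 0.427 in FeD kidneys. These ranges overlapped, with a log2 difference of -0.07 (exact two-sided permutation test, P = 0.40, and 0.40 adjusted over 4 ratios). Of the assembly factors, Sdhaf2, which aids the attachment of flavin to Sdha, had 732 to 781 normalized counts in control kidneys and 569 to 687 in FeD kidneys (log2 fold change -0.30, standard error 0.09, adjusted P = 0.028, edgeR), a call that was lost when any kidney other than FeD kidney 3 was left out, with adjusted P values up to 0.098 (edgeR). Sdhaf1, which aids the insertion of iron-sulfur clusters into Sdhb, had 494 to 557 normalized counts in control kidneys and 396 to 554 in FeD kidneys and did not pass (log2 fold change -0.12, standard error 0.12, adjusted P = 0.47, edgeR). Its estimate turned to 0.02 without FeD kidney 2 and to 0.06 with a correction for gene length. The gene E130208F15Rik, transcribed from the other strand, overlaps 65.9% of the Sdhaf1 exon sequence, so part of these reads can belong to it.

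Fumarase fell modestly and the malate dehydrogenases strongly. Fh1, which hydrates fumarate to malate, had 3965 to 4282 normalized counts in control kidneys and 3241 to 3469.8 in FeD kidneys (log2 fold change -0.30, standard error 0.06, adjusted P = 0.0053, edgeR). Mdh1 (mm9 chromosome 11, 21456790 to 21472370), the cytosolic malate dehydrogenase of the malate-aspartate shuttle, had 22697, 23804 and 24228 normalized counts in the control kidneys and 12056, 11207 and 11296 in the FeD kidneys. The groups lay far apart, and this was the largest fall of the 33 genes (log2 fold change -1.03, standard error 0.08, adjusted P = 5.2e-05, edgeR). Its mean fell from 23576 ± 790.3 to 11519.5 ± 467 normalized counts (SD, n = 3), and with single kidneys omitted the estimate was -1.06 to -0.99, on the log2 scale, short of a 2-fold change without FeD kidney 2. Mdh2, the mitochondrial enzyme that closes the cycle, had 9896, 10479 and 11363 normalized counts in the control kidneys and 6467, 5486 and 6029 in the FeD kidneys (log2 fold change -0.82, standard error 0.09, adjusted P = 0.00027, edgeR). Both enzymes were lower in all FeD kidneys. Me3, a mitochondrial NADP-dependent malic enzyme, had 1302, 1258 and 1381 normalized counts in the control kidneys and 902, 802 and 751 in the FeD kidneys (log2 fold change -0.68, standard error 0.08, adjusted P = 0.00050, edgeR). Me2, the NAD-dependent enzyme and the least counted of the 33 genes, had 286 to 320.3 normalized counts in control kidneys and 204 to 249.6 in FeD kidneys (log2 fold change -0.39, standard error 0.11, adjusted P = 0.021, edgeR), a call lost when any kidney other than FeD kidney 3 was left out, with adjusted P values up to 0.086 (edgeR).

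**Figure D2:**
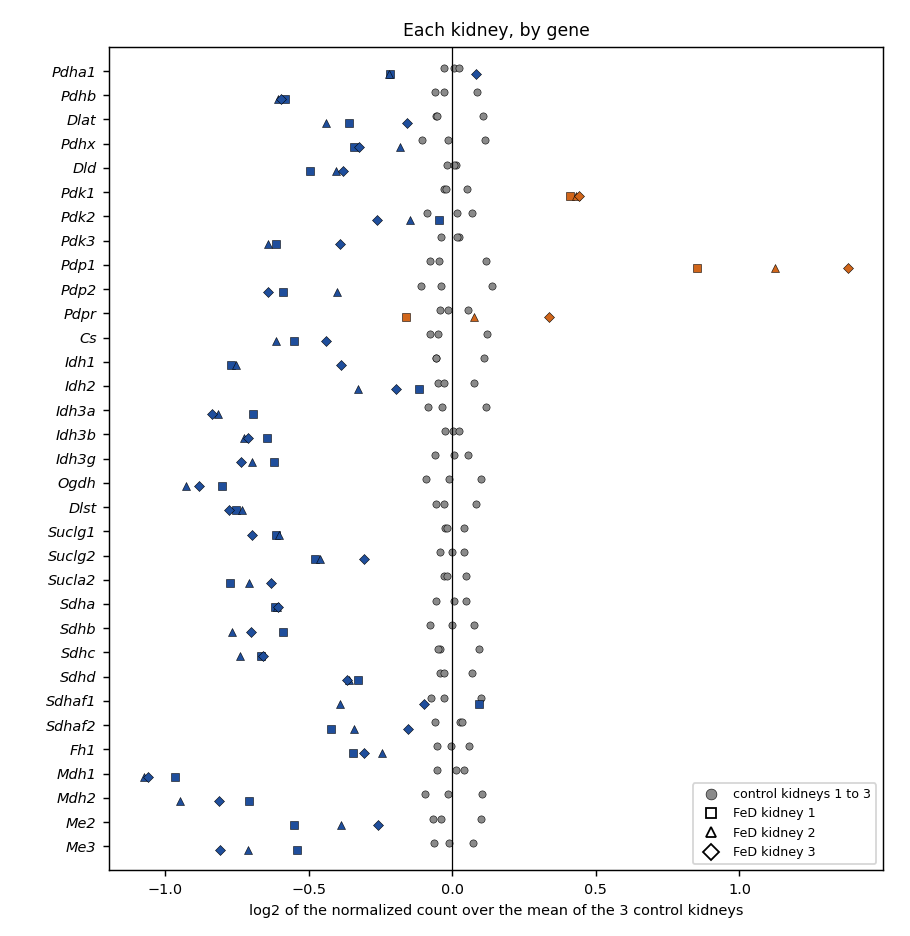
Normalized count of each gene in each kidney as the log2 of its ratio to the mean of the 3 control kidneys (horizontal axis; grey circles are control kidneys, squares, triangles and diamonds are FeD kidneys 1, 2 and 3). FeD symbols lie left of all grey circles for 27 of the 33 genes and right of them for Pdk1 and Pdp1.

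Among the FeD kidneys, kidney 1 was the lowest for 12 of the 33 genes, kidney 2 for 13 and kidney 3 for 8. Among the control kidneys, kidney 1 was the lowest for 24 genes and kidney 3 the highest for 23. The lowest values were thus spread over the FeD kidneys, and mostly held by kidney 1 among the controls. These orders were counted for the 33 genes only, so they may not be particular to them. With single kidneys left out, 22 to 27 genes fell and 2 rose (edgeR, adjusted P under 0.05).

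Levels of different genes were compared only per exon length, as RPKM. In control kidneys the order was led by Mdh1, at 514 ± 17.2 in control and 251 ± 10.2 RPKM in FeD kidneys. Mdh2, Sdhd and Idh2 followed at 284, 282 and 275 RPKM in control kidneys, whose kidneys overlapped. In FeD kidneys Mdh2 stood apart below the other 3 of these 4 genes, at a level of 161 ± 13.2 RPKM, while Idh2, at 238 ± 17.4 RPKM, overlapped both Mdh1 and Sdhd. Sdha (level 230.1 RPKM) stood apart from the genes above and below it in control kidneys. From Sdhb at 182 to Dld at 142 RPKM each gene overlapped its neighbours in the order, although the kidneys of Sdhb lay above those of Dld. Among the PDH subunits, Pdhb and Dld had levels of 162 and 142 RPKM in control kidneys, Pdha1 81.0, Dlat 36.1 and Pdhx 13.7 RPKM. The regulators were scarcer: Pdk2 had a level of 82.5 ± 4.59 in control and 74.3 ± 5.61 RPKM in FeD kidneys, Pdk1 of 15.6 ± 0.495 in control and 21.0 ± 0.230 RPKM in FeD kidneys and Pdk3 of 13.4 ± 0.319 in control and 9.17 ± 0.889 RPKM in FeD kidneys. Pdp1 had a mean level of 5.46 ± 0.404 in control and 11.97 ± 2.17 RPKM in FeD kidneys, below Pdp2 in control and above it in FeD, as Pdp2 stood at 7.08 ± 0.638 in control and 4.87 ± 0.436 RPKM in FeD kidneys. The lowest levels in control kidneys were those of Me3 and Pdpr, at 5.03 and 4.505 RPKM. Exon lengths were those of GENCODE on mm9, and the annotation used for counting was not given.

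**Figure D3:**
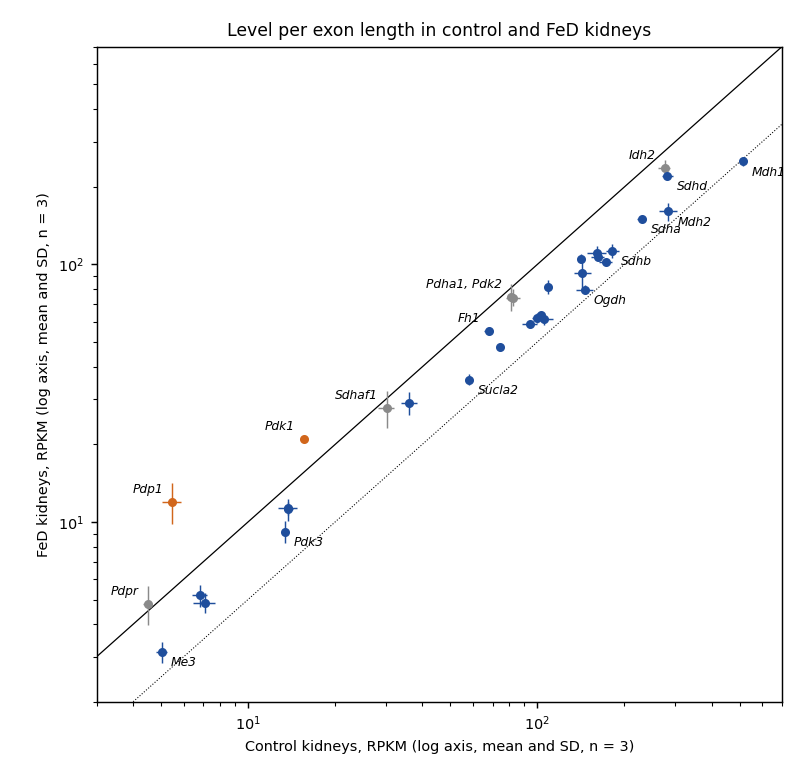
Level of each gene per exon length (RPKM, log axes, mean and SD of 3 kidneys) in control (horizontal) and FeD kidneys (vertical). The solid line marks equal levels and the dotted line a 2-fold lower level in FeD; Mdh1 sits near the dotted line, and Pdk1 and Pdp1 (orange) lie above the solid line.

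**Figure D4:**
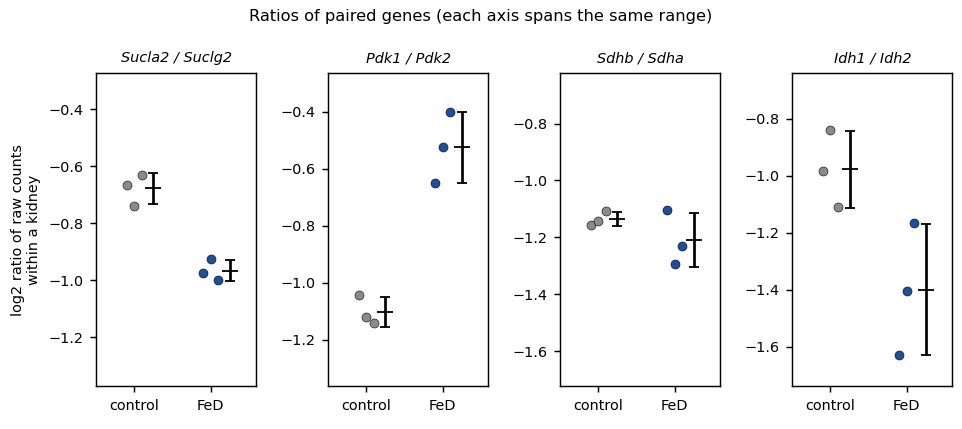
Log2 ratio of raw counts of paired genes within each kidney (vertical axes, the same span in each panel; grey points control, blue points FeD, black marks mean and SD, n = 3). The groups are apart for Sucla2 to Suclg2, Pdk1 to Pdk2 and Idh1 to Idh2 and overlap for Sdhb to Sdha.

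Companion genes of the pathway that are not among the 33 were listed as well: pyruvate entry and carboxylation, further kinase, oxoglutarate and assembly genes, lipoate synthesis, and carriers and enzymes that exchange cycle intermediates. Of these 30 genes, all tested, 15 fell and 2 rose at an adjusted P under 0.05 (edgeR), and their median was -0.28 on the log2 scale. By the same rule 23.3% of all tested genes fell and 22.4% rose. With any single control kidney left out 1 companion gene rose, and without FeD kidney 3 there were 4. Aco1, the cytosolic aconitase that turns into iron regulatory protein 1 when it lacks its cluster, had 8828, 9378 and 9467 normalized counts in the control kidneys and 5666, 5517 and 5783 in the FeD kidneys (log2 fold change -0.71, standard error 0.07, adjusted P = 0.00015, edgeR). All FeD kidneys were below the controls. Pdk4, the PDH kinase induced by fasting, had 1015, 1084 and 1004 normalized counts in the control kidneys and 4539.5, 4422 and 2225 in the FeD kidneys. FeD kidneys 1 and 2 were about alike and FeD kidney 3 lower, but all were above the controls (log2 fold change 1.85, standard error 0.24, adjusted P = 0.00063, edgeR). Pck2, the mitochondrial phosphoenolpyruvate carboxykinase and the other gene that rose, named after its value was seen, went from 724 ± 19.2 to 902 ± 86.8 normalized counts (log2 fold change 0.32, standard error 0.09, adjusted P = 0.019, edgeR). Ogdhl, a relative of Ogdh, fell from 172 ± 14.3 to 53.8 ± 31.1 normalized counts (log2 fold change -1.72, standard error 0.33, adjusted P = 0.0040, edgeR). Nnt, the mitochondrial transhydrogenase that makes NADPH, had 4937, 5181 and 8239 normalized counts in the control kidneys and 3068, 2798 and 2999 in the FeD kidneys (log2 fold change -1.05, standard error 0.18, adjusted P = 0.0023, edgeR), with control kidney 3 above the other controls.

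**Figure D5:**
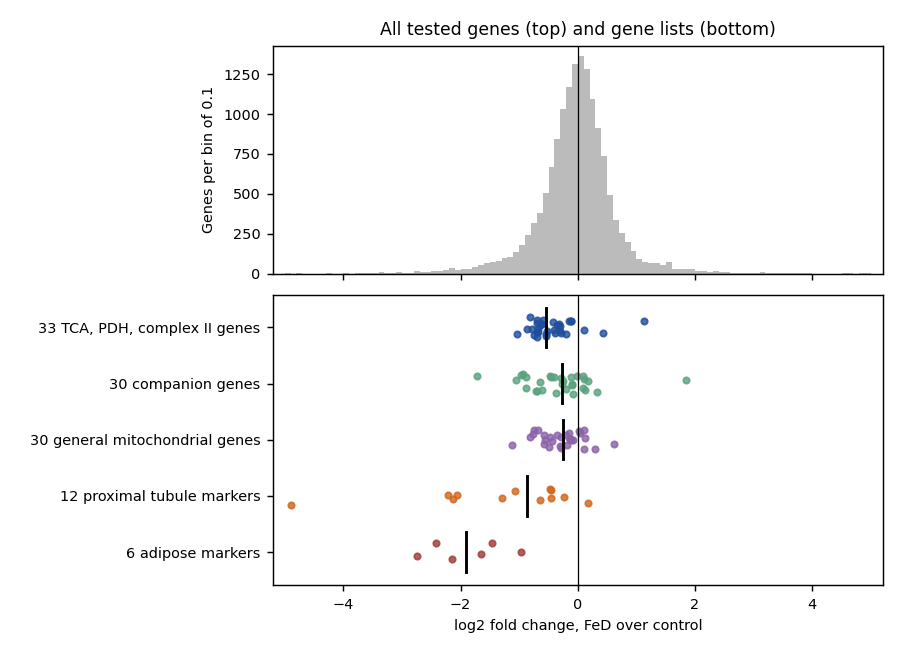
Histogram of the log2 fold change (FeD over control) of all 15145 tested genes, with values beyond 5 in size placed in the end bins (top), and the log2 fold change of each gene in 5 lists (bottom; black bars are medians, points are spread vertically for view only). Medians are -0.54 for the 33 genes, -0.28 for companion genes, -0.25 for general mitochondrial genes, -0.86 for proximal tubule markers and -1.90 for adipose markers.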

How the data were processed

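Poly(A)-selected RNA of 6 kidneys was sequenced by the authors as single-end reads of 100 bases. Per the submitters' processing notes and the methods of the study, base calls were converted with CASAVA 1.8.2, reads were trimmed with Trimmomatic, aligned to mm9 with TopHat2 2.0.11, kept if uniquely mapped, and counted per gene with HTSeq; the deposited values are raw counts per gene, without normalization or pooling. The annotation and strand setting were not given in the sources used here, so reads of genes that overlap on opposite strands can be mixed.

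Groups came from the sample titles. The table of 24422 genes was fitted with edgeR 4.0.16 (R 4.3.3): filterByExpr left 15145 genes, libraries were scaled by TMM, and FeD was compared with control by the quasi-likelihood test, P being adjusted over all tested genes by Benjamini-Hochberg (called at an adjusted P under 0.05, with or without a 2-fold change). A normalized count is the count after TMM scaling, expressed at the average library size; RPKM also uses GENCODE exon length on mm9. The standard error is the log2 fold change divided by the square root of F. Ratios used raw counts plus 0.5 and scipy 1.17.1's exact permutation test. A gene with 3 counts stood at 0.144 to 0.218 CPM; reads carry no molecular identifiers, so such a floor covers counting error only. The coefficient of variation between kidneys was 12.8%. Libraries of a group differed by a chi-square per degree of freedom of 3.86 to 32.0, so none was a copy. Windows of 100 bases of member transcripts, every 10 bases, were searched for in the mm9 genome.

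The members, gene lists and tests were chosen with earlier results of these data known. Values of every kidney are given for members past the adjusted P whose log2 change was 0.5 or more in size; Aco1 and Pdk4 were named in any case, and other companion and mitochondrial genes past the adjusted P with a 2-fold change. Every kidney's value for Pdha1, Pdpr and Idh2, Pck2, Tomm20, Ppargc1a and the markers named were chosen after their values were seen. Alternatives were DESeq2 1.42.0, RLE, upper-quartile or no scaling, other filters, the replicate number as a block, a gene length offset, both together, haemoglobin and mitochondrial genome genes left out, glmTreat at a fold of 1.2, another pseudocount and each kidney left out. 1 companion gene is counted but not reported by name here. The procedure was also run on simulated counts, with the same variation between kidneys for every gene and no litter effect. That run therefore does not test how such features of the real data affect the calls.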

Additional observations from a re-analysis of the deposited data

How the results depend on the processing

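The 26 genes that fell and the 2 that rose were 25 and 2 with the replicate number as a block, 24 and 2 with the gene length offset, 22 and 2 with both, 27 and 2 with DESeq2, and 26 or 27 and 2 under RLE, upper-quartile or no scaling and under other filters. Kidneys with the same number shared only the number: their deviations from the group means correlated by -0.162, 0 and -0.035, and no control kidney correlated best with its own number. Mdh1, the 1 gene with a fall of at least 2-fold, missed that fold with the gene length offset and with the block and offset together (0 genes each), and the count was 0 to 1 with single kidneys left out. Leaving out single kidneys gave 22 to 27 falling genes and 1 to 4 rising companion genes. Genes without overlap numbered 29 to 32, but that count cannot fall when a kidney is removed, so it tests nothing. Sdhaf1 reversed to 0.06 with the gene length offset and 0.05 with block and offset, and ranged from -0.22 to 0.02 with single kidneys left out; Pdpr ranged from -0.03 to 0.23. The cause was not tested. Over the alternatives, calls were lost for Dlat, Pdhx, Sdhd, Sdhaf2 and Me2 and gained for Pdha1 and Idh2. Leaving out haemoglobin and mitochondrial genome genes moved no value of the 33 genes and so tests nothing. The block alone changed only the call of Pdhx (adjusted P = 0.060, edgeR). The gene length offset alone changed only those of Sdhaf2 (adjusted P = 0.053, edgeR) and Me2 (0.069). Block and offset together changed those of Pdhx, Sdhd, Sdhaf2 and Me2, and no other. With 3 kidneys a group, single ratios could not pass an exact test.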

Other observations

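A list of general mitochondrial genes outside the pathway held 30 genes of import, chaperones, fusion, nucleoid and their regulators. Of these, 17 fell in FeD kidneys, 2 rose and 11 did not pass at an adjusted P under 0.05 (edgeR). By this rule 23.3% of all tested genes fell and 22.4% rose. The median of the 30 genes was -0.25 on the log2 scale. Their sums were 5140 to 5390 CPM in control kidneys and 4220 to 4520 CPM in FeD kidneys. The 2 that rose, named after their values were seen, were Tomm20, an import receptor of the outer membrane (log2 fold change 0.62, standard error 0.09, adjusted P = 0.0011, edgeR), and Ppargc1a, a coactivator of mitochondrial biogenesis (log2 fold change 0.30, standard error 0.06, adjusted P = 0.0049, edgeR). Esrra, an orphan nuclear receptor that drives genes of oxidative metabolism, was the only one of the 30 called with a 2-fold change. It had 2313, 2195 and 2684 normalized counts in the control kidneys and 1265, 1005 and 1011 in the FeD kidneys (log2 fold change -1.13, standard error 0.11, adjusted P = 0.00017, edgeR), so all FeD kidneys were below the controls. The list moved in the same libraries as the proximal tubule and adipose markers, and the part of those tissues was not tested.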
